A study of Homo sapiens with 6 samples.

Results

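HMGA1, HMGA2, LIN28A, LIN28B, IGF2BP1, IGF2BP2, IGF2BP3 and IGF2 are 8 genes of an oncofetal growth program, out of 35580 genes to which transcripts in the deposited tables could be joined. They were chosen by name, with the contrast between control and siDDX5 libraries already known, and HMGA2 was among the genes called in that contrast. Their levels, fold changes and transcript shares in that contrast are therefore given as a description, with no test. All 8 genes were found, and their symbols cover 68 transcripts. These include a second IGF2 entry (ENSG00000284779.1), which held at most 3.6 estimated counts in a library and is in none of the IGF2 values. Of the 8 genes, 7 passed the filter on low counts. LIN28B did not pass it and had no fold change.

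The libraries came from Rh30, a human alveolar rhabdomyosarcoma line that carries the PAX3-FOXO1 fusion gene. The 2 groups were control cells and cells with a knockdown of DDX5, labelled siDDX5, with 3 libraries each. DDX5 is a DEAD-box RNA helicase that also takes part in microRNA processing. Both groups share the 1 cell line and its fusion, and the labels give neither the knockdown reagent, nor what the control cells received, nor the time after treatment.

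HMGA proteins bind the minor groove of AT-rich DNA and bend chromatin. LIN28 proteins bind the precursors of the let-7 microRNAs and block their maturation, and mature let-7 in turn represses HMGA2, LIN28B and IGF2BP1 through sites in their 3′ UTRs. IGF2BP proteins bind mRNAs, IGF2 mRNA among them, and steady or transport them, and IGF2 is a growth factor that signals through the IGF1 receptor. These genes are on in the embryo, mostly low in adult tissue, and on again in many tumours, and IGF2 is a well known growth factor of rhabdomyosarcoma.

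The let-7 family is shown first because its target word is what most of these mRNAs have in common. RefSeq (GRCh38.p14) held 11 human mature microRNAs with the same seed, bases 2 to 8, of which a pair is printed 5′ to 3′ with the seed in capitals.
hsa-let-7a-5p: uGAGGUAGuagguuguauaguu
hsa-miR-98-5p: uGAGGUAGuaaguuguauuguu
The word complementary to that seed is CTACCTC. It was searched on the sense strand of the annotated 3′ UTR of each gene's most abundant protein-coding transcript. Of the 7 members with such a UTR, 6 held the word. HMGA2 and IGF2BP1 each held it 4 times, and HMGA1, LIN28A, IGF2BP2 and IGF2BP3 held it 1 time each. IGF2, with a 3′ UTR of 3875 bases, did not hold it. Among 12832 tested genes with a 3′ UTR, 9.16% held the word at least 1 time and 9 genes, or 0.0701%, held it at least 4 times. The members were chosen by name and include known let-7 targets, so these shares are no test of them. The median 3′ UTR was 989 bases over all these genes and 2765 bases for those with the word. The part of UTR length was not tested.

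The 4 windows in HMGA2-204, the main HMGA2 mRNA, lie on the plus strand of chromosome 12 (GRCh38), with the word in capitals. The words spread over its 3′ UTR of 3003 bases, starting at bases 21, 1256, 1668 and 2521.
chr12:65963299-65963320: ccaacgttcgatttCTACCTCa
chr12:65964534-65964555: cccactactcaataCTACCTCt
chr12:65964946-65964967: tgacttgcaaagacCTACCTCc
chr12:65965799-65965820: atcaaaacacactaCTACCTCt
The 4 windows in IGF2BP1-201 lie on the plus strand of chromosome 17, in a 3′ UTR of 6206 bases, and are shown because this mRNA matched HMGA2 in its number of words and not in its fold change.
chr17:49051062-49051083: gtgtgcgaagtaaaCTACCTCa
chr17:49053699-49053720: agcagtgctagtaaCTACCTCa
chr17:49054353-49054374: tataaatggattaaCTACCTCa
chr17:49054998-49055019: cacttttgttttatCTACCTCt
The members with a single word are represented by HMGA1, on the plus strand of chromosome 6, and IGF2BP3, on the minus strand of chromosome 7.
chr6:34245830-34245851: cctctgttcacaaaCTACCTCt
chr7:23311795-23311816: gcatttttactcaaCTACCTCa
LIN28B had no annotated 3′ UTR on its most abundant transcript. Its transcript LIN28B-201, with a 3′ UTR of 4549 bases, held 4 words.

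Libraries held from 18202402 to 26156858 estimated counts, with all siDDX5 libraries less deep than the control ones. A count of 3, taken as the floor, was worth 0.115 to 0.165 CPM (the count scaled to a common library total). DDX5 was at 1352, 1434 and 1137 CPM in control libraries and at 549, 504 and 396 CPM in siDDX5 libraries, a log2 fold change of -1.44 with an SE of 0.15 (edgeR adjusted p 0.0106). The DDX5 call was lost with length-scaled TPM counts (adjusted p 0.0756), in limma on log2(TPM + 1) and log2(TPM + 0.1) (0.0849 and 0.0927), and in edgeR without control replicate 1 (0.0955), siDDX5 replicate 1 (0.0655) or siDDX5 replicate 2 (0.0531), with log2 fold changes of -1.54 to -1.37 in these fits. All 8 muscle lineage markers examined were detected, and their summed level was 1174 to 1509 TPM (a level scaled for transcript length and library total) in the control and 1132 to 1200 in the siDDX5 libraries. Of the epithelial markers 0 of 4 reached 1 TPM and KRT19 was at 0. Of the immune markers 2 of 4 did, at a sum of at most 4.98 TPM in any library, and of the endothelial markers 1 of 4 did, at a sum of at most 7.27 TPM. In such bulk libraries fewer cells that express a gene and less RNA per cell cannot be told apart.

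The members covered a wide range of levels in control cells. Per length, in TPM summed over all transcripts of a gene, IGF2BP3 stood highest at 77.3 ± 9.73 (SD, n = 3 here and below), followed by IGF2BP2 at 65.4 ± 7.74, IGF2 at 52.6 ± 20.6 and IGF2BP1 at 34.3 ± 2.12. The ranges over libraries of neighbours among these 4 genes overlapped, so their order is not settled by 3 libraries. HMGA2 followed at 19.7 ± 2.2 TPM and HMGA1 at 12.9 ± 2.95 TPM, each apart from its neighbours in every library. LIN28A at 0.344 ± 0.144 TPM and LIN28B at 0.176 ± 0.0591 TPM were far below all others and overlapped each other. In the siDDX5 libraries the order of the means was the same, but HMGA2 at 32.5 ± 3.91 TPM now overlapped IGF2BP1 at 37.4 ± 6.22 TPM. Short non-coding transcripts made up much of the IGF2BP2 and IGF2BP3 sums. Over protein-coding transcripts alone, control IGF2BP2 was at 39.6 ± 2.05 TPM and IGF2BP3 at 48.0 ± 8.43 TPM, 61.2% and 61.9% of the gene's TPM.

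**Figure D1:**
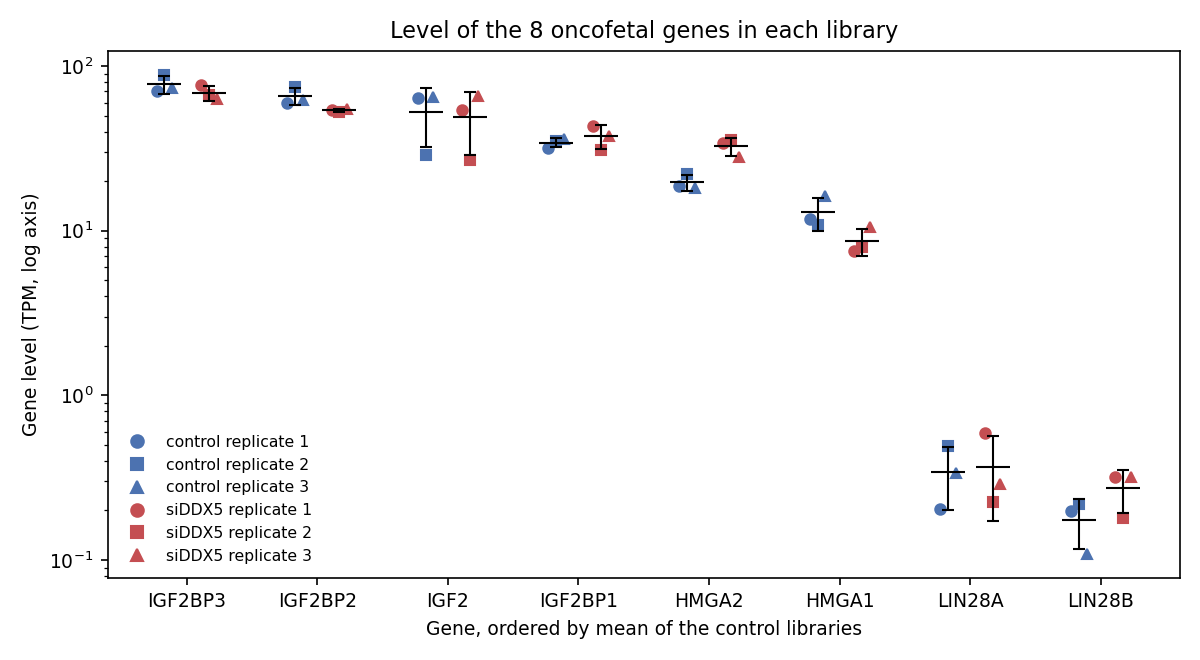
Level of the 8 genes per library in TPM, summed over all transcripts of a gene, on a logarithmic axis. Symbols are the 3 control (blue) and 3 siDDX5 (red) libraries, horizontal lines group means and error bars the SD. HMGA2 lies at 18.2 to 22.2 TPM in control and 28 to 35.3 TPM in siDDX5 libraries, and LIN28A and LIN28B lie below 1 TPM in all of them.

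HMGA2 (ENSG00000149948.13, chr12:65824131-65966295, plus strand, GRCh38) was the member with the highest fold change. It was at 35.1, 42.5 and 35.2 CPM in control libraries and at 70.6, 88.2 and 64.2 CPM in siDDX5 libraries. Every siDDX5 library stood above every control library, and the lowest of them was well clear of the highest control value. The means were 37.6 ± 4.22 and 74.3 ± 12.4 CPM, a log2 fold change of 0.98 (SE 0.14), or 1.98-fold, at percentile 99.7 of the genes tested. In TPM the values were 18.6, 22.2 and 18.2 against 34.0, 35.3 and 28, which is 1.65-fold. Libraries with the same replicate number differed by 1.01, 1.05 and 0.86 on the log2 CPM scale, so all 3 pairs gave nearly the same difference.

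HMGA1 (ENSG00000137309.19, chr6:34236873-34246231, plus strand) encodes the sister protein and lay on the other side. It was at 19.2, 17.3 and 25.5 CPM in control libraries and at 11.7, 13.8 and 16.7 CPM in siDDX5 libraries. No siDDX5 library reached the lowest control library, though control replicate 2 and siDDX5 replicate 3 were close. The log2 fold change was -0.56 (SE 0.19), or 1.47-fold lower. Processed pseudogenes of HMGA1 can share its reads, and their part in these values was not tested. The ratio of HMGA2 to HMGA1 within a library does not depend on library scaling. In TPM it was 1.59, 2.06 and 1.12 in the control libraries and 4.5, 4.46 and 2.67 in the siDDX5 libraries. The groups of this ratio could not overlap, because in TPM every siDDX5 library was above for HMGA2 and below for HMGA1.

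LIN28A (ENSG00000131914.10, chr1:26410778-26429722, plus strand) was barely detected. Its estimated counts were 14.1, 28.3 and 21.1 in the control and 30.3, 12.1 and 12 in the siDDX5 libraries. By raw count siDDX5 replicate 1 was the highest of all and the other siDDX5 libraries, which are less deep, the lowest. In CPM control replicate 1 was the lowest, at 0.547 against 0.655 and 0.661 in siDDX5 replicates 2 and 3. The log2 fold change of 0.07 had an SE of 0.44, so at this depth neither a rise nor a fall of moderate size was detectable. LIN28B (ENSG00000187772.7, chr6:104936616-105083332, plus strand) had 4, 3 and 2 estimated counts in the control and 7, 5 and 4 in the siDDX5 libraries, between 2 and 7 counts around the floor of 3, and no fold is given.

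The IGF2BP genes were abundant and had small fold changes. IGF2BP1 (ENSG00000159217.9, chr17:48997412-49055650, plus strand) was at 166, 177 and 179 CPM in control libraries and at 217, 181 and 210 CPM in siDDX5 libraries. The siDDX5 values were all higher, but siDDX5 replicate 2 exceeded control replicate 3 by little. The log2 fold change was 0.22 (SE 0.11), and in TPM the groups overlapped, at 31.9 to 36.0 in control and 31.1 to 43.5 in siDDX5 libraries. IGF2BP2 (ENSG00000073792.15, chr3:185643739-185825056, minus strand) was at 89.0, 85.8 and 84.4 CPM in control libraries and at 77.1, 80.5 and 77.0 CPM in siDDX5 libraries. These groups did not overlap, yet the difference was small, with a log2 fold change of -0.14 (SE 0.09). In TPM they did not overlap either, at 59.6, 74.2 and 62.3 in control and 54.1, 52.4 and 54.6 in siDDX5 libraries, or 0.822-fold. Over protein-coding transcripts alone IGF2BP2 was at 39.6 ± 2.05 TPM in control and 33.5 ± 3.58 TPM in siDDX5 libraries, again without overlap. IGF2BP3 (ENSG00000136231.13, chr7:23310209-23470467, minus strand) was at 98.9, 131 and 107 CPM in control libraries and at 115, 114 and 106 CPM in siDDX5 libraries. The groups overlapped throughout and the log2 fold change was -0.01 (SE 0.12).

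IGF2 (ENSG00000167244.19, chr11:2129112-2149603, minus strand), the growth factor of the group, varied more between replicate numbers than between conditions. It was at 258, 115 and 257 CPM in control libraries and at 204, 116 and 263 CPM in siDDX5 libraries. Replicate 2 was low in both groups, and the lowest of the other 4 libraries was 1.76 times the higher of the replicate 2 libraries. Of 10993 genes averaging 5 CPM or more, 8 genes, or 0.0728%, had a gap that size or larger with replicate 2 lower, a count made after the IGF2 values were seen. The log2 fold change was -0.11 (SE 0.33), and same-numbered libraries differed by -0.34, 0.00 and 0.04.

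Among the 7 members tested, CPM values did not overlap between groups for 4. HMGA2 and IGF2BP1 were above and HMGA1 and IGF2BP2 below in siDDX5, while 8.87% of all 15223 genes tested were above in this way and 9.22% below, or 18.1% in either direction. The median log2 fold change of the 7 was -0.01, against -0.002 over all genes tested. At an adjusted p under 0.05 in edgeR, 1 member, HMGA2, was among the 25 genes called, which are 0.164% of those tested (0.0526% counting higher genes only and 0.112% counting lower ones). With the replicate number as a block 2 members, HMGA2 and HMGA1, were among 394 called genes, or 2.59%, of which higher genes made 1.14% and lower genes 1.45% of those tested. With any 1 library left out, HMGA2 was not called in any of the 6 fits, and its log2 fold change ran from 0.84 to 1.09. It was not called either with length-scaled TPM counts (0.78) or with limma on log2(TPM + 1) (0.69) and log2(TPM + 0.1) (0.72). Since the members were picked with this contrast known, these counts carry no support of their own.

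**Figure D2:**
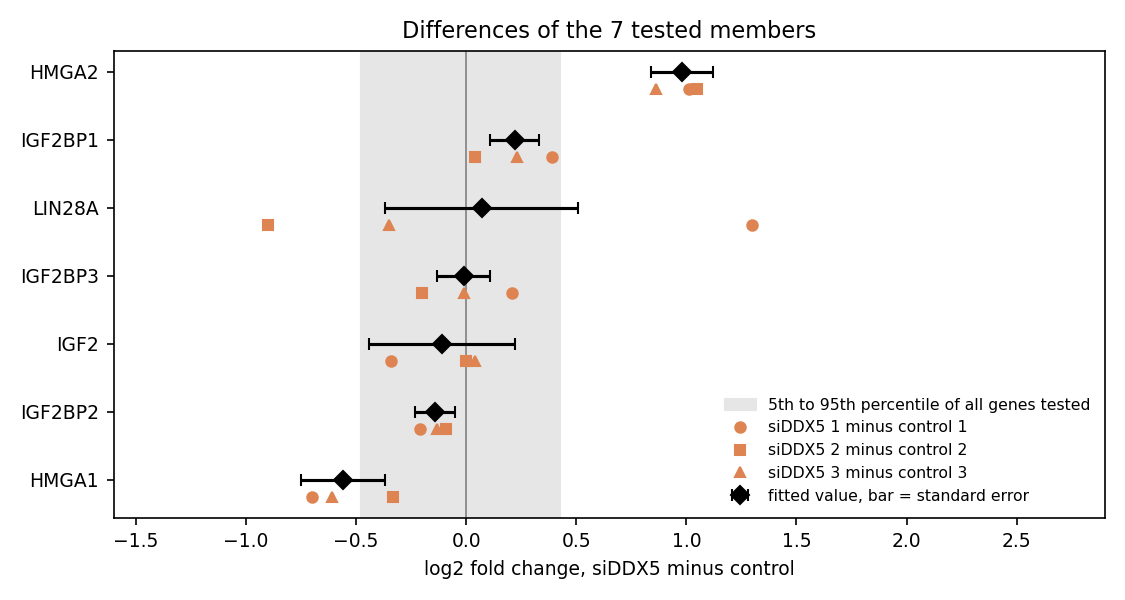
Difference in log2 CPM between siDDX5 and control libraries of the same replicate number for the 7 members tested, with the fitted log2 fold change (diamond) and its standard error. The grey band spans percentiles 5 to 95 of all genes tested. The 3 HMGA2 differences lie between 0.86 and 1.05, those of HMGA1 between -0.70 and -0.33, and those of LIN28A on both sides of 0.

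The higher HMGA2 level was found in 1 of its transcripts. HMGA2-204 (ENST00000403681.6, 4473 bases) is the annotated mRNA with the long let-7 bearing 3′ UTR. It was at 9.09, 11.6 and 10 TPM in control libraries and at 22.9, 27.4 and 21.1 TPM in siDDX5 libraries, with every siDDX5 library far above every control library. Its mean was 10.2 ± 1.28 and 23.8 ± 3.23 TPM, a 2.33-fold difference. The other 10 HMGA2 transcripts together were at 9.47, 10.6 and 8.21 TPM in control libraries and at 11.1, 7.92 and 6.86 TPM in siDDX5 libraries. Their groups overlapped, with means of 9.42 ± 1.19 and 8.63 ± 2.21 TPM. The share of HMGA2-204 in the TPM of the gene was 49.0%, 52.3% and 55% in the control and 67.4%, 77.6% and 75.5% in the siDDX5 libraries, which is 21.4 percentage points higher on average and 15.0 points higher as a share of estimated counts.

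HMGA2-211 (ENST00000545998.1, 1584 bases), annotated as a retained intron form, was the next most abundant. It was at 4.66, 6.09 and 5.19 TPM in control libraries and at 5.74, 5.04 and 4.63 TPM in siDDX5 libraries, with overlapping groups. As HMGA2-204 was higher, the share of HMGA2-211 was lower, at 27.0 ± 1.71% in control and 15.9 ± 1.42% in siDDX5 libraries. HMGA2-204 has 3214 bases (71.9%) found in no other HMGA2 transcript, and HMGA2-211 has 58.5% of its bases to itself, so much of each could be assigned without sharing. HMGA2-211 holds 0 bases of the HMGA2-204 3′ UTR. Of the 3′ UTRs annotated on the other HMGA2 transcripts, only that of HMGA2-209, at a mean of 0.127 TPM, held CTACCTC. Outside the 3′ UTR the word is common to these forms, and 10 of the 11 HMGA2 transcripts, HMGA2-211 included, held it at least 1 time somewhere in their sequence. The error of dividing reads among transcripts is not part of the SD values and was not analysed here.

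**Figure D3:**
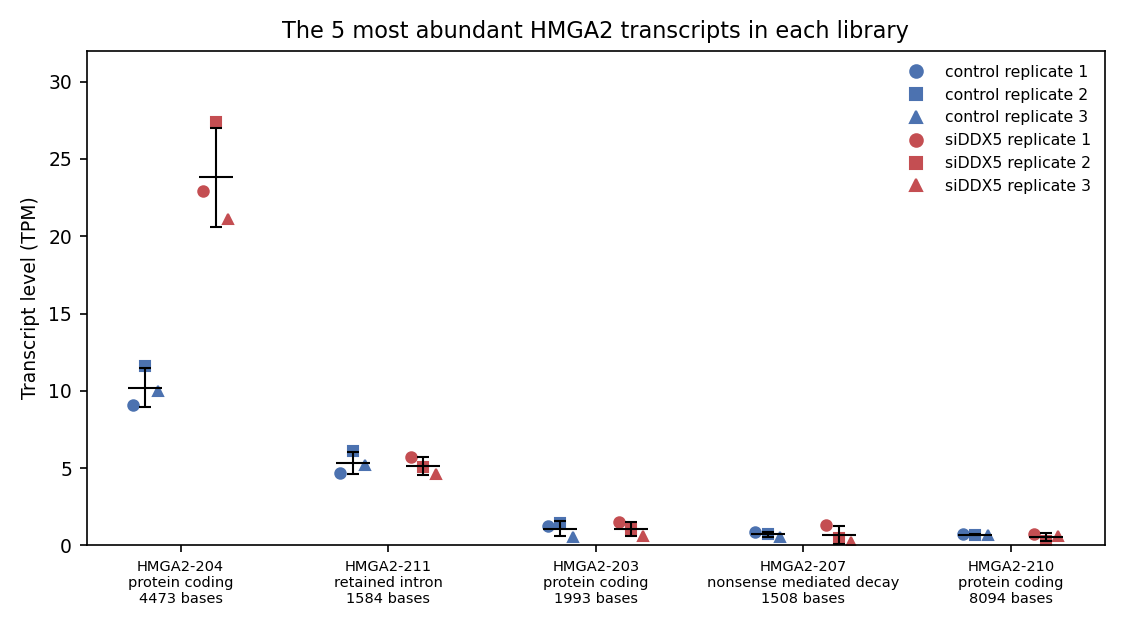
Level in TPM of the 5 most abundant HMGA2 transcripts in each of the 6 libraries, with group means as horizontal lines and the SD as error bars. HMGA2-204 lies at 9.09 to 11.6 TPM in control and 21.1 to 27.4 TPM in siDDX5 libraries, while HMGA2-211 stays between 4.63 and 6.09 TPM in all of them.

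Transcripts of the other members mostly overlapped between groups. Of 33 member transcripts with a mean of at least 1 TPM, 1 was above and 2 below in TPM in every siDDX5 library, where 5.41% and 8.94% of all transcripts at that level were, or 14.3% in either direction. By share of the gene, 2 were above and 5 below, against 6.27% and 7.39% of all, or 13.7% in either direction. The pair below in TPM was HMGA1-202 and IGF2BP3-212. HMGA1-202 was at 2.25, 2.43 and 3.67 TPM in control libraries and at 1.20, 0.679 and 1.82 TPM in siDDX5 libraries, and all of its bases occur in other HMGA1 transcripts. HMGA1-201, the main form, was at 8.57 ± 1.6 and 6.40 ± 1.51 TPM with overlapping groups. IGF2BP3-212, a retained intron form of 596 bases with 0 bases of its own, was at 9.38, 7.85 and 7.80 TPM in control libraries and at 1.82, 3.75 and 0.0 TPM in siDDX5 libraries. Values of forms that share all their bases rest on how reads were divided.

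The main mRNAs of the IGF2BP genes and IGF2 had close means in the 2 groups. IGF2BP1-201 was at 26.4 ± 1.53 TPM in control and 30.5 ± 4.53 TPM in siDDX5 libraries. Its share of the gene was 77.1 ± 0.761% and 81.6 ± 3.27%, without overlap in TPM, but by estimated counts the share differed by only 0.508 percentage points. IGF2BP2-202 was at 17.8 ± 1.99 and 17.7 ± 3.07 TPM. IGF2BP3-201 was at 44.5 ± 5.80 and 42.8 ± 4.41 TPM. IGF2-203, the main IGF2 form, was at 35.2 ± 13.7 and 35.0 ± 12.8 TPM, with the low replicate 2 in both groups, at 19.4 and 21.7 TPM. The ranges of the 2 groups overlapped for each of these 4 mRNAs.

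Across the transcriptome, genes with 1 or 2 let-7 words had nearly the same median fold change as genes without. The median log2 fold change was 0.006 for the 11656 genes without CTACCTC, 0.007 for the 1053 with 1 word and 0.008 for the 102 with 2. For the 21 genes with at least 3 words, HMGA2 and IGF2BP1 among them, it was 0.116, and 0.035 for the 19 left without these members. The median 3′ UTR length went along, at 878, 2542, 4226 and 5954 bases in these classes, and its part was not tested. Among genes with at least 4 words, some of them named here for that count after their values were seen, HMGA2 was at 0.98, NR6A1 at 0.38, IGF2BP1 at 0.22, HIC2 at -0.11, IGDCC3 at -0.20 and SMC1A at -0.37. Similar numbers of words thus stood beside fold changes on both sides of 0.

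**Figure D4:**
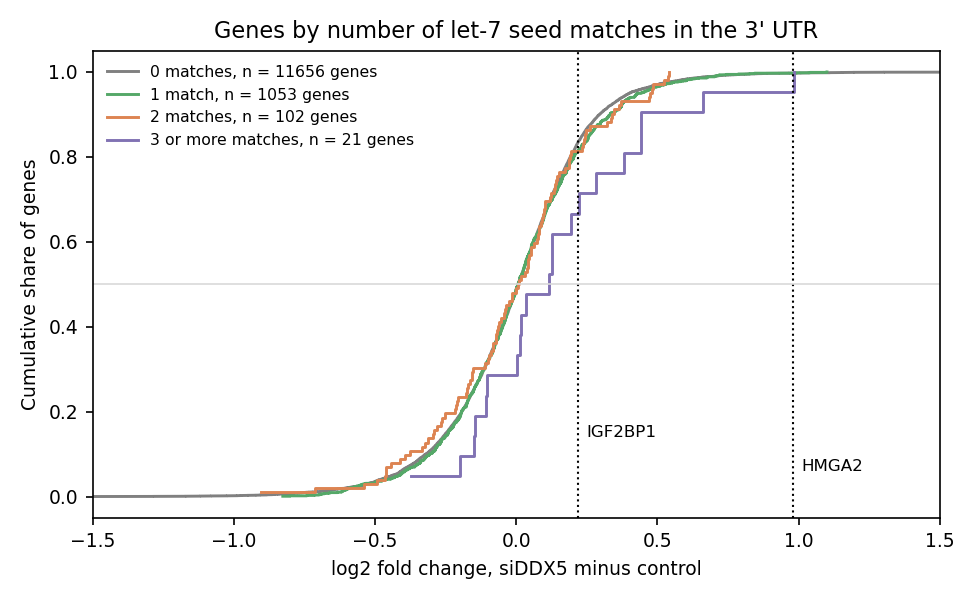
Cumulative share of tested genes by log2 fold change, for genes with 0, 1, 2 and at least 3 CTACCTC words in the 3′ UTR, with HMGA2 and IGF2BP1 as dotted lines. The curves for 0, 1 and 2 words lie on each other, with medians of 0.006, 0.007 and 0.008, and the curve for at least 3 words rests on 21 genes, HMGA2 and IGF2BP1 included.

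A second microRNA word, that of miR-26, was examined because miR-26 was in earlier results of these data, so it was not chosen independently of them. miR-26 is also known to target HMGA2. It is printed with bases 2 to 8 in capitals, followed by the windows of HMGA2-204 that hold ACTTGAA, the complement of its bases 1 to 7 (2 windows), or TACTTGA, the complement of bases 2 to 8 (1 window). The second word, which takes the same bases as the let-7 search and can overlap the first, was added after the data had been examined.
hsa-miR-26a-5p: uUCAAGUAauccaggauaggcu
chr12:65964782-65964803: agatttctacattaACTTGAAa
chr12:65965145-65965166: caaccttcaaagaaACTTGAAg
chr12:65963843-65963864: atcttgtagacactTACTTGAt
Of the members examined, 2 held ACTTGAA in the 3′ UTR, HMGA2 and HMGA1, and they lay on opposite sides of 0. Over all genes, 16.6% held it. Their median log2 fold change was 0.043, against 0.0 for genes without it, and their median 3′ UTR was 2766 bases against 775. TACTTGA was held by 11.1% of genes, with a median of 0.047 against 0.002 and a median 3′ UTR of 2774 against 854 bases, and among the members by HMGA2 and HMGA1, 1 time each. The part of UTR length in these differences was not tested.

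Lists of related genes were read beside the members. They were drawn up with earlier results of these data known, so their counts are descriptive. Of the 34 let-7 target genes listed, 32 were tested, 23 had a log2 fold change above 0 and 9 below, and the median was 0.10. In edgeR 0 were called, an unadjusted p under 0.05 was reached by 8 higher and 2 lower genes, against 5.37% and 6.0% of all genes (11.4% in either direction), and DESeq2 called 3, where it called 2.12% of all genes. With the replicate block 2 were called. ARID3A, a DNA-binding protein of early B cells, was at 22.2 ± 2.21 CPM in control and 11.9 ± 2.52 CPM in siDDX5 libraries, a log2 fold change of -0.90 with an SE of 0.17 (edgeR adjusted p 0.0781, and 0.0101 with the block). CDC25A, a phosphatase that drives the cell cycle, was at 58.6 ± 10.1 and 84.3 ± 4.71 CPM, a log2 fold change of 0.52 with an SE of 0.13 (edgeR adjusted p 0.183, and 0.02 with the block). With the block these genes passed in opposite directions.

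Of 15 tested genes that process let-7 or act with LIN28, 7 were above and 8 below 0, with a median of -0.03. None was called in edgeR, with or without the block, or in DESeq2. At an unadjusted p under 0.05 in edgeR 1 was lower, where 6.0% of all genes were. The extremes were TRIM25, a ligase that aids LIN28A in marking let-7 precursors, at 0.20 (edgeR adjusted p 0.557), and DIS3L2, the exonuclease that degrades marked precursors, at -0.31 (edgeR adjusted p 0.375). On log2(TPM + 1) TRIM25 was at -0.02, so its sign depended on the scale.

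Of 13 tested genes of the IGF axis, 5 were above and 8 below 0, with a median of -0.10, and 0 were called in edgeR, with or without the block, or in DESeq2. An unadjusted p under 0.05 in edgeR was found for 1 higher and 1 lower gene, against 5.37% and 6.0% of all genes. IRS2, the adaptor below the IGF1 and insulin receptors, was at 0.40 (edgeR adjusted p 0.463). PLAGL1, an imprinted zinc finger gene, was at -0.18 (edgeR adjusted p 0.849), and its sign turned to 0.14 without control replicate 3 and to 0.04 without siDDX5 replicate 2.

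Of 11 tested mRNAs known as IGF2BP targets, 1 was called in edgeR and it fell, where 0.164% of all genes were called. In DESeq2 2 were called, BTRC lower and NRAS higher (DESeq2 adjusted p 0.019), where it called 2.12% of all genes. An unadjusted p under 0.05 in edgeR was reached by 3 higher genes and 1 lower. Of all genes 5.37% were higher and 6.0% lower in this way, or 11.4% in either direction. BTRC, the substrate receptor of a ubiquitin ligase for beta-catenin whose mRNA IGF2BP1 is known to stabilise, was at 58.5, 59.5 and 59.3 CPM in control libraries and at 37.2, 30.8 and 37.2 CPM in siDDX5 libraries. All siDDX5 libraries were far below all control libraries. The log2 fold change was -0.75 with an SE of 0.11 (edgeR adjusted p 0.0422, and 0.00873 with the block), and the call was lost in each of the 6 fits with 1 library left out, with length-scaled TPM counts and in both limma fits on TPM. NRAS, which is in the let-7 list too, was the highest, at 234 ± 20.7 and 315 ± 20.4 CPM, a log2 fold change of 0.43 with an SE of 0.11 (edgeR adjusted p 0.183). The median of the 11 was 0.08, with 7 above and 4 below 0.

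Of the 9 proteins known to share particles with IGF2BPs and the 10 other high mobility group genes tested, 0 were called in edgeR, with or without the block, or in DESeq2. At an unadjusted p under 0.05 in edgeR 1 in each list was lower, where 6.0% of all genes were. PABPC1, the poly(A) binding protein, was at 0.21 (edgeR adjusted p 0.471) and ELAVL1, which binds AU-rich mRNA, at -0.34 (edgeR adjusted p 0.235). HMGB2 was at 0.23 (edgeR adjusted p 0.444) and HMGB3, a related chromatin protein, at -0.37 (edgeR adjusted p 0.334). The medians were 0.04 and 0.07.

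Of 15 other oncofetal and imprinted growth genes, 13 were found in the deposited data and 8 were tested. The 7 not tested, H19, DLK1, GPC3 and SALL4 among them, were either absent from the data or below the filter. Of the 8, 2 were above and 6 below 0, with a median of -0.21, and 0 were called in edgeR, with or without the block, or in DESeq2. At an unadjusted p under 0.05 in edgeR 2 were higher, where 5.37% of all genes were. NR6A1, an orphan nuclear receptor of the embryo, was at 0.38 (edgeR adjusted p 0.411), and AFP, the fetal serum protein, at -0.30 (edgeR adjusted p 0.586).

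**Figure D5:**
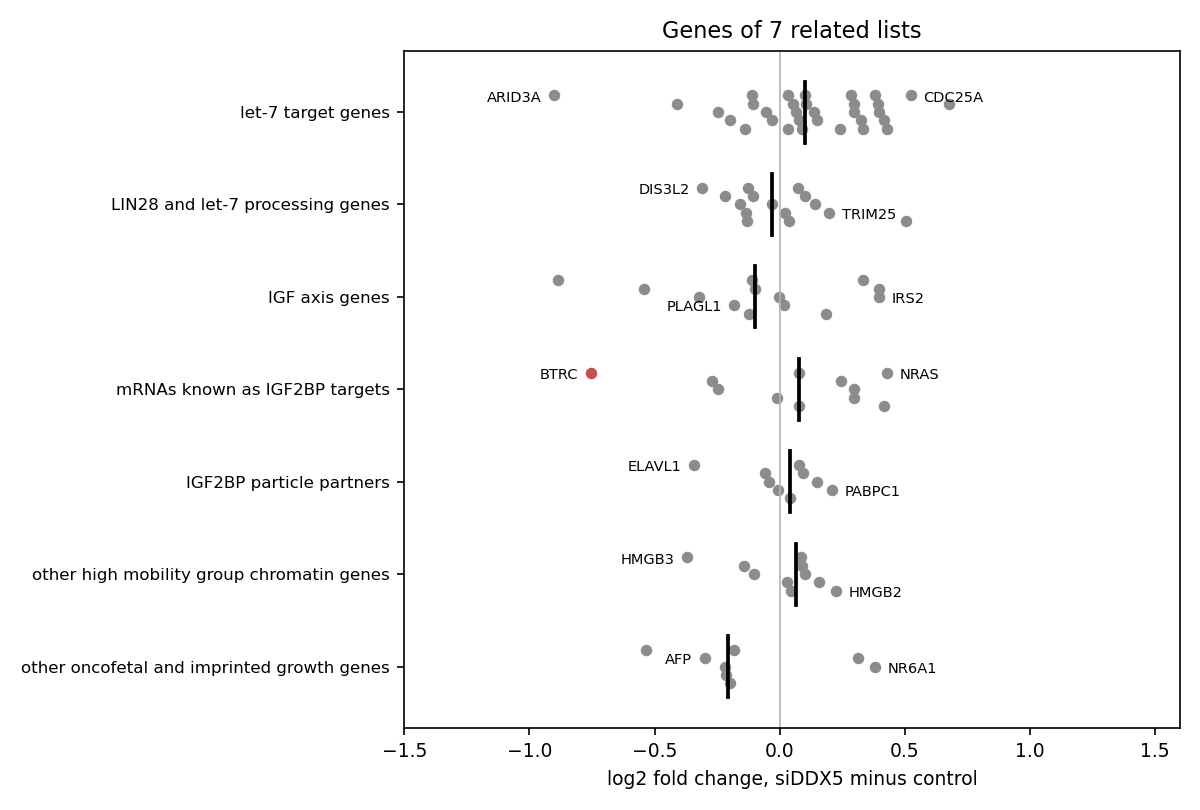
Log2 fold change of each tested gene in the 7 lists, with the median of each list as a vertical bar, BTRC as the called gene in red, and the highest and lowest gene with a mean of at least 5 CPM named. Medians run from -0.21 for the other oncofetal genes to 0.10 for the let-7 targets.

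Genes around HMGA2 had smaller differences. The 6 tested protein-coding genes that start within 1 Mb had log2 fold changes of -0.13 for LEMD3, 0.19 for MSRB3, 0.06 for LLPH, 0.14 for TMBIM4, 0.01 for IRAK3 and 0.10 for HELB. In edgeR, with or without the block, and in DESeq2 0 of the 6 were called, and 0 had an unadjusted p under 0.05. The signs of LLPH, TMBIM4, IRAK3 and HELB turned under other scalings or with 1 library left out. RPSAP52, a pseudogene transcribed antisense across the start of HMGA2 and named after its values were seen, was at 4.74, 7.03 and 4.62 CPM in control libraries and at 4.74, 5.41 and 4.18 CPM in siDDX5 libraries. Per length it was at 7.99, 11.9 and 8.02 TPM in control libraries and at 8.41, 8.37 and 7.03 TPM in siDDX5 libraries. The groups overlapped on both scales.

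The genes whose log2 CPM, centred over the 6 libraries, lay nearest to that of HMGA2 were AC015802.6 at a root-mean-square distance of 0.116, CHIC1 at 0.145, TEF at 0.147, SFXN1 at 0.155 and COMMD8 at 0.157, where the median of 10743 genes was 0.53. TEF is a PAR bZIP transcription factor and SFXN1 a mitochondrial serine transporter. Their log2 fold changes were 0.79, 0.79, 0.87, 1.07 and 0.81. The distance is over 6 libraries that also hold the contrast, so it mostly ranks genes by a fold change close to that of HMGA2. Among the members IGF2BP1 was nearest, at 0.44 with 18.2% of genes nearer, followed by IGF2BP3 at 0.5 with 38.2% nearer. IGF2 was farthest, at 0.87 with 98.3% nearer. No member was among the 5 genes, which were picked for the smallest distances, so every other gene lay farther by construction.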

How the data were processed

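The 6 deposited tables, 1 per library, hold 188753 transcripts, each with its length, effective length, TPM and estimated count. Per the submitters' processing notes the tools include bcl2fastq 2.20, FastQC 0.11.8, cutadapt 1.11 and kallisto 0.46.0, and the build is GRCh38. Per the labels the library kit keeps strand. The strand setting of the quantification is not given in the sources used here. The estimated counts were deposited without normalization, with shared reads already divided among transcripts by the authors' quantifier. The deposited TPM values had been scaled for effective length and library total.

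Transcripts were joined to GENCODE release 29 by identifier (169797 transcripts, 90.0%), by symbol (15315) or by position (890), and 2751 were left out. All member transcripts were joined by identifier. Gene totals of the estimated counts were rounded to whole numbers. Genes passing filterByExpr were scaled by TMM and tested in edgeR 4.0.16 (R 4.3.3) by the quasi-likelihood test with group as the only term, with Benjamini-Hochberg adjustment over 15223 genes and calls at 0.05. A standard error is the log2 fold change divided by the square root of F. CPM values are TMM-normalised. Steps were tested on simulated data.

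The members and lists were chosen with earlier results of these data known. Named were the members, DDX5, in each list up to 3 called genes and the highest and lowest at a mean of at least 5 CPM, the 5 genes nearest to HMGA2, its neighbours within 1 Mb, and member transcripts with a share of at least 10%. Other names were chosen after their values were seen. Transcripts below that share are given as counts.

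Replicate numbers come from the titles. Deviations from group means of same-numbered libraries correlated at 0.21, 0.27 and 0.58 over 15223 genes. The numbers were therefore taken as pairs in the fit with the replicate block, whose values stand beside results they change. The main fit does not use the pairing, so its standard errors and p-values include the spread between replicate numbers. It called 25 genes, and the blocked fit 394. The design text calls the replicates biological, and whether they were separate cultures is not given in the sources used here, so p-values measure only the spread between these libraries. Alternatives were DESeq2 1.42.0, other size factors, no filter, a stricter filter (mean count of 50 or more), length-scaled TPM, limma 3.58.1 on log2(TPM + 1) and log2(TPM + 0.1), the join by identifier alone, the replicate block, and each library left out. RefSeq sequences of the microRNAs and GRCh38 sequences of the UTRs were read from reference files. Of the 12832 transcripts searched for words, 54.5% had the same length in the tables and in the annotation. IGF2BP1-201 is 8796 bases long in the tables and 8274 in the annotation.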

Additional observations from a re-analysis of the deposited data

How the results depend on the processing

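The number of genes called moved most: from 25 to 323 in DESeq2, 136 without the filter, 394 with the replicate block (173 higher and 221 lower, with all 25 among them), 2 with length-scaled TPM counts, and 1 each with limma on log2(TPM + 1) and log2(TPM + 0.1). With 1 library left out it was 0 to 15, at 0 without control replicate 1 and without siDDX5 replicate 1, where edgeR gave 1245 and 2042 genes at an unadjusted p under 0.05. Calls among let-7 targets went from 0 to 3 in DESeq2, 1 without the filter and 2 with the replicate block. Calls among IGF2BP targets went from 1 to 2 in DESeq2 and to 0 with length-scaled TPM counts and with limma on log2(TPM + 1) and log2(TPM + 0.1), and were 0 to 0 with 1 library left out. The cause was not tested. The log2 fold change of HMGA2 was 0.78 with length-scaled TPM counts, 0.69 on log2(TPM + 1) and 0.72 on log2(TPM + 0.1), and stayed above 0 in all 15 alternatives. Over these alternatives HMGA1 ran from -0.69 to -0.38, IGF2BP1 from 0.11 to 0.30, IGF2BP2 from -0.28 to -0.12, IGF2BP3 from -0.17 to 0.12 and IGF2 from -0.40 to 0.15. LIN28A had no value under the stricter filter and in limma, and ran from -0.44 to 0.42 in the others. By estimated counts the HMGA2-204 share differed by 15.0 points.

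The sign turned for TRIM25 (-0.02 in both limma fits), IRAK3 (-0.02 with length-scaled TPM counts, -0.07 in both limma fits) and HELB (-0.10 with length-scaled TPM counts, -0.11 and -0.13 in limma). With 1 library left out, PLAGL1 ran from -0.47 to 0.14, LLPH from -0.03 to 0.16, TMBIM4 from -0.03 to 0.26 and IRAK3 from -0.04 to 0.07. The replicate block changed the calls of HMGA1, ARID3A, CDC25A, AC015802.6, CHIC1 and COMMD8 and no other call among the named genes. Depth limits LIN28A and LIN28B.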
